A study of Mus musculus with 21 samples.

Results

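The 10 genes described here encode core components of antigen presentation by major histocompatibility complex (MHC) molecules: Cd74, H2-Aa, H2-Ab1 and H2-Eb1 of the class II pathway, and B2m, H2-K1, H2-D1, Psmb8, Psmb9 and Tap1 of the class I pathway. They were chosen by name, 4 of class II and 6 of class I, out of 25127 genes with values in each library. RNA was sequenced from the whole spinal cord of 21 C57BL/6 mice, 1 library a mouse, of 3 genotypes at 2 ages. The knockout mice, called cKO, carried Cnp-Cre with Tardbp-fl/fl, so that Cre acted on both floxed alleles of Tardbp, the gene of the RNA-binding protein TDP-43. The heterozygous mice, called cHET, carried Cnp-Cre with Tardbp-fl/+ and so had 1 floxed allele beside Cre. The controls had Tardbp-fl/fl and no Cre. Each genotype was represented at postnatal day 21 (P21) by 4 mice, 2 female and 2 male. At the age labelled P60 each genotype had 3 mice: cKO males of 61 to 64 days, cHET males of 60 to 65 days and control females of 74 days.

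Cre from the Cnp locus acts in the oligodendrocyte lineage, so whole cord holds deleted and undeleted cells, and all genes here were read in that mixture. Tardbp averaged 1751 ± 99.5 in cKO, 2141 ± 108 in cHET and 2263 ± 115 in control cords at P21 (SD, n = 4 each), and 803 ± 25.1 in cKO, 921 ± 13.3 in cHET and 883 ± 54.5 in control cords at P60 (SD, n = 3 each). Its fall against cHET passed the test at both ages, by 0.29 and 0.20 on the log2 scale (limma adjusted p = 2.5e-03 and 0.040). Against control it passed at P21 only, with a log2 change of -0.14 and an adjusted p of 0.14 at P60. Cnp fell in cKO and in cHET cords against control at both ages (log2 changes of -0.42 to -0.85, limma adjusted p of 1.1e-03 or less), so the cHET cords are the comparison that shares Cnp-Cre with cKO. All values in the text are the authors' normalized scaled reads per base, which are relative to gene length, and their read depth is not known. P21 and P60 libraries were made with different kits, so levels are compared within an age.

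MHC class I molecules are a heavy chain such as H2-K1 or H2-D1 bound to beta-2 microglobulin, and present peptides from inside the cell to CD8+ T cells. The immunoproteasome subunits Psmb8 and Psmb9 cut proteins into such peptides and the Tap1 transporter subunit helps carry them into the endoplasmic reticulum. Class II molecules, made of an alpha chain such as H2-Aa and a beta chain such as H2-Ab1 or H2-Eb1, present peptides from endosomes to CD4+ T cells, and the invariant chain Cd74 guards their groove on the way. In the healthy central nervous system both pathways are expressed at low levels, and microglia and border macrophages can raise them.

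Of the 10 genes 8 lie in the H2 region of chromosome 17 (GRCm38), and B2m and Cd74 lie elsewhere. H2-K1 spans chr17:33996017-34000347, H2-Ab1 chr17:34257689-34269419, H2-Aa chr17:34282744-34287823, H2-Eb1 chr17:34305867-34316674 and H2-D1 chr17:35262730-35267499. Psmb9 at chr17:34181987-34187764 and Tap1 at chr17:34187553-34197225 point away from each other, with RefSeq start sites 226 bases apart, and Psmb8 follows at chr17:34197721-34201454. B2m spans chr2:122147686-122153083, and all 5398 bases of it lie within the opposite-strand gene Patl2. Psmb9 and Tap1, on opposite strands, share 212 bases. The antisense genes Gm20496 and Gm20513 overlap Psmb8 and H2-Eb1 by 2139 and 2204 bases. Whether counting used strand is not given in the sources used here, so reads of these overlapping pairs may not be told apart, and near-identical class I heavy chains may share reads with H2-K1 and H2-D1.

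The bases just before the start sites of 5 members are shown because class I and class II promoters are known to carry a shared block of boxes, and these 5 genes encode chains of MHC molecules. They are from RefSeq, GRCm38.p6, read 5′ to 3′ on the gene's own strand. Capitals mark matches on either strand to TGACG when ATTGG follows 20 or 21 bases later (the cores of the X2 box and the Y box), to ATTGG alone, to GGGGATTCC (the NF-kB site of enhancer A) and to AANNGAAA (the core that interferon regulatory factors read). A match on the opposite strand reads CCAAT or TTTCACTT.
H2-K1, chr17:34000348-34000522, minus strand: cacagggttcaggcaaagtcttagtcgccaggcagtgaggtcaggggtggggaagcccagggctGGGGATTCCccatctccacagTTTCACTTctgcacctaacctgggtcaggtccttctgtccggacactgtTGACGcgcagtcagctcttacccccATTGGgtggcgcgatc
H2-D1, chr17:35262919-35263093, plus strand: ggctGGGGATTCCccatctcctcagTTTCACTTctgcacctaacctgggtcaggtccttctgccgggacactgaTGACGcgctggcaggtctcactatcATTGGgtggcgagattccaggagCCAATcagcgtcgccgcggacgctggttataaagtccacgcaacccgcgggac
B2m, chr2:122147512-122147686, plus strand: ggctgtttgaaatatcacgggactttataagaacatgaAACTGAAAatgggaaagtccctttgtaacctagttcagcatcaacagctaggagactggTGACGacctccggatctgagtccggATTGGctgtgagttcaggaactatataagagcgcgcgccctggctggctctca
H2-Aa, chr17:34287824-34287998, minus strand: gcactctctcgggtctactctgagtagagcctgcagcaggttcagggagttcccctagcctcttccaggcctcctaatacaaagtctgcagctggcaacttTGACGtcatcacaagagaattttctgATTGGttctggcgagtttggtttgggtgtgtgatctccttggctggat
H2-Eb1, chr17:34305692-34305866, plus strand: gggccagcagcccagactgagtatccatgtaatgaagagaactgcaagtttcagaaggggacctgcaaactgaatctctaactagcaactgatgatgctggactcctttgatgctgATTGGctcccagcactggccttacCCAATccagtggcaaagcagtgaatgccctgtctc

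The spaced pair of X2 and Y cores was found in the promoters of H2-K1, H2-D1, B2m and H2-Aa, and in 50 of 32851 promoter windows of the RefSeq table (0.152%), counting both strands over the 250 bases before each start. The gap was 20 bases in H2-K1, H2-D1 and B2m and 21 bases in H2-Aa, and this spacing was chosen with these sequences in view. Of the motifs searched H2-Eb1 held the Y core alone, on both strands. The Y core by itself occurs in 33.8% of windows and the X2 core by itself in 17.8%, and in H2-Aa the X2 core overlaps its own match on the opposite strand. The enhancer A letters, present in H2-K1 and H2-D1, occur in 0.213% of windows. Among the other members whose windows were searched, Psmb9 and Tap1 held single X2 and Y cores with no spaced pair. Psmb8 held none of these motifs. Whether any motif bears on the change in cKO cords was not tested. The interferon regulatory factor core, seen above in H2-K1, H2-D1 and B2m and found further upstream in H2-Aa, is common and occurs in 21.3%. These matches describe letters in the windows and say nothing of which factors bound them.

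Class II genes each averaged 65.3 or less in every cHET and control group and, apart from H2-Eb1 at P21, rose in cKO cords, with larger fold changes at P60. Against cHET, Cd74 was 5.48-fold higher at P21 and 17.8-fold at P60. H2-Aa was 2.68-fold and 10.8-fold higher and H2-Ab1 5.44-fold and 11.0-fold higher, while H2-Eb1 was 3.92-fold higher at P60 and did not pass at P21. Counting class I as well, 9 of the 10 genes were higher in cKO than in cHET cords at P21 at an adjusted p under 0.05, where 12.6% of all genes tested were, and 10 of 10 at P60, where 13.4% were. Against control the counts were 9 at P21 (14.6% of all genes) and 10 at P60 (14.5%), and none of the members was lower. Every cKO library lay above every library of the other genotype for 9 genes at P21, against cHET (12.7% of all genes) and against control (15%), and for 10 at P60, against cHET (20.6%) and control (22%). These comparisons share the cKO libraries. H2-Aa at P21 and H2-Ab1 at P60 reached the minimum level for testing only through their cKO libraries, and leaving out H2-Aa at P21 left 8 higher of 9 genes, and leaving out H2-Ab1 at P60 left 9 higher of 9, against cHET and against control alike.

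**Figure D1:**
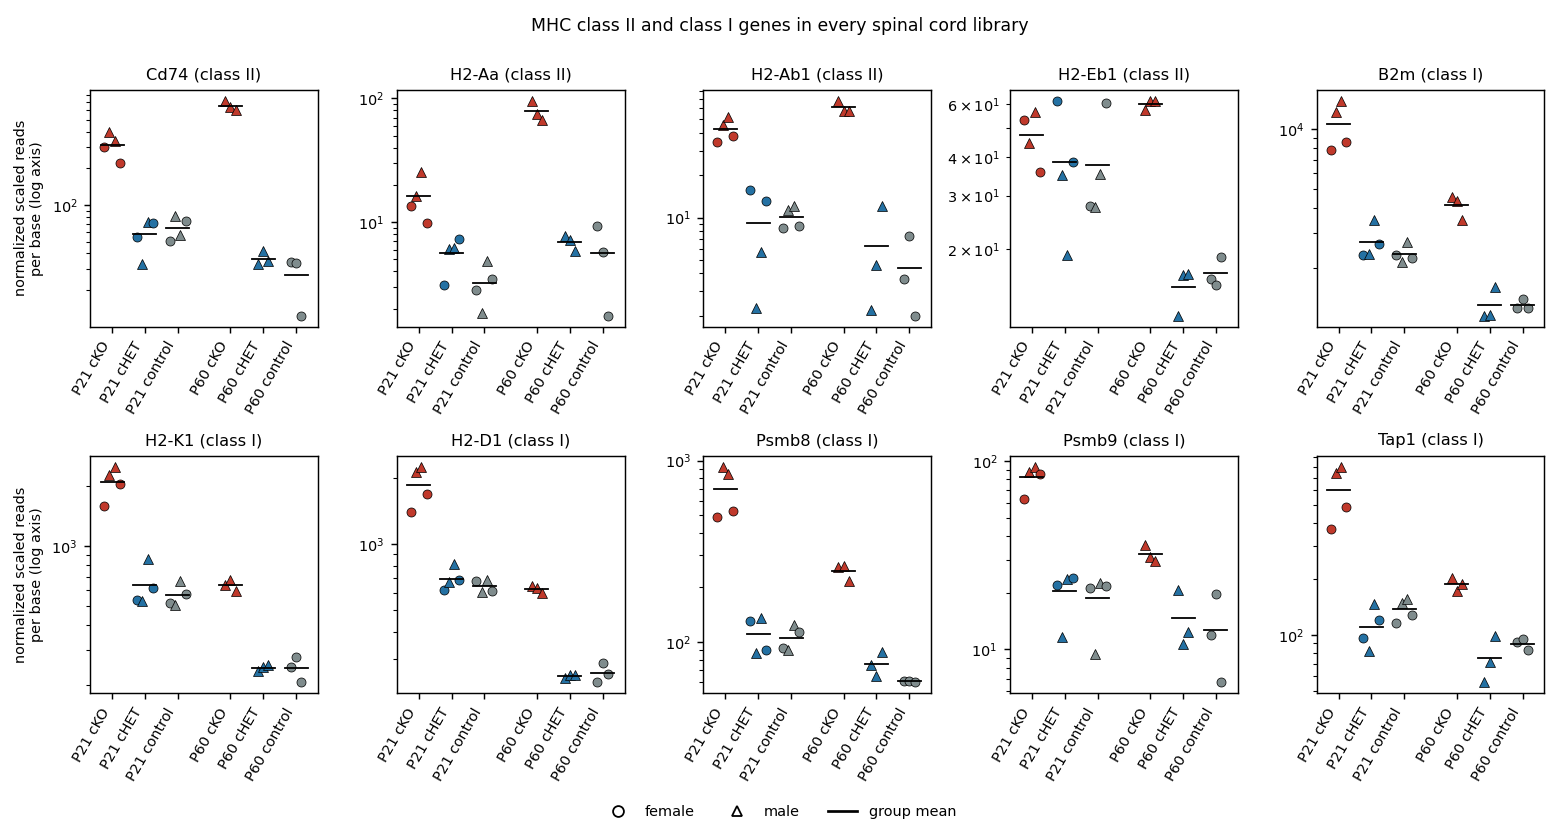
Each panel plots 1 gene in all 21 libraries, as normalized scaled reads per base on a log axis, with cKO (red), cHET (blue) and control (grey) at P21 and then P60. Circles are female mice, triangles male mice and lines group means; the cKO libraries lie above all cHET and control libraries of their age in every panel except H2-Eb1 at P21.

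Cd74, the invariant chain that chaperones class II, had 298, 395, 334 and 220 in P21 cKO cords, against 54.8, 32.9, 72.7 and 71.2 in cHET and 50.6, 80.8, 56.4 and 73.4 in control cords. The P60 values of Cd74 were 718, 637 and 604 in cKO cords, against 32.6, 41.6 and 34.9 in cHET and 34.0, 33.1 and 12.3 in control cords. Every cKO library lay well above every other library of its age. The log2 change against cHET was 2.45 ± 0.25 at P21 and 4.15 ± 0.32 at P60 (SE, limma adjusted p = 5.7e-06 and 3.5e-06). Against control it was 2.24 ± 0.25 and 4.73 ± 0.32, the last being 26.5-fold.

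H2-Aa, the alpha chain of the I-A molecule, had 13.6, 16.2, 25.5 and 9.90 in P21 cKO cords, against 3.10, 6.01, 6.21 and 7.29 in cHET and 2.80, 1.83, 4.83 and 3.46 in control cords. For H2-Aa at P60 the values were 96.1, 75.1 and 67.6 in cKO cords, against 7.73, 7.15 and 5.84 in cHET and 9.30, 5.70 and 1.75 in control cords. The groups did not overlap, though at P21 the lowest cKO library was close to the highest cHET one. Its log2 change against cHET was 1.42 ± 0.45 at P21 (limma adjusted p = 0.034) and 3.43 ± 0.47 at P60 (2.8e-04). The P21 call did not hold when any of cKO 1, 2 and 3 or cHET 1, 2 and 3 was left out (limma adjusted p up to 0.11), nor in the authors' deposited table (q = 0.0565).

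H2-Ab1, the beta chain of I-A, had 34.7, 45.5, 52.2 and 38.3 in P21 cKO cords, against 15.6, 2.28, 5.66 and 13.2 in cHET and 8.43, 11.3, 12.1 and 8.77 in control cords. In P60 cords H2-Ab1 had 68.1, 57.8 and 57.0 in cKO cords, against 2.19, 4.59 and 12.1 in cHET and 3.63, 7.41 and 1.99 in control cords. All cKO libraries were above all others, and the cHET libraries varied among themselves more than the controls did at P21. The log2 change against cHET was 2.44 ± 0.46 at P21 (limma adjusted p = 1.4e-03) and 3.46 ± 0.56 at P60 (9.8e-04).

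H2-Eb1, the beta chain of I-E, stood apart from the other class II genes at P21. It had 52.9, 44.7, 56.5 and 35.9 in cKO cords, against 61.3, 35.2, 19.2 and 38.7 in cHET and 27.7, 27.6, 35.4 and 60.5 in control cords. The groups overlapped, and the highest single value belonged to a cHET cord. The log2 change against cHET was 0.39 ± 0.33 (limma adjusted p = 0.47), with a 95% interval of -0.33 to 1.10. By P60 H2-Eb1 had 57.2, 61.3 and 61.4 in cKO cords, against 12.1, 16.4 and 16.6 in cHET and 16.03, 15.3 and 18.9 in control cords. Here the groups were apart, at 1.97 ± 0.21 against cHET (limma adjusted p = 4.5e-05). C57BL/6 mice lack a functional I-E alpha chain, so the I-E beta chain they make has no partner of its own isotype. Its ratio to H2-Ab1 ran from 0.938 to 1.52 in P21 cKO cords, against 2.93 to 15.4 in cHET and 2.45 to 6.90 in control cords.

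Class I genes other than Psmb9 had higher mean levels per base than any class II gene in each cHET and control group, while Psmb9, at group means of 12.8 to 20.4, lay below Cd74 and H2-Eb1. Each of the 6 rose in cKO cords at both ages, by 2.65- to 6.12-fold against cHET at P21 and by 2.24- to 3.24-fold at P60. B2m was the most abundant of the 10 genes per base in every group. At P21 Psmb8 had the largest fold change of the class I genes against cHET, and at P60 Psmb8 and B2m were within 1 SE of each other at 1.70 ± 0.13 and 1.67 ± 0.13 on the log2 scale. No class I value in a cKO cord fell within the range of cHET or control cords of its age.

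B2m, the light chain shared by class I molecules, had 7876, 12182, 13928 and 8617 in P21 cKO cords, against 2315, 2328, 3477 and 2633 in cHET and 2305, 2135, 2702 and 2241 in control cords. B2m at P60 had 4521, 4351 and 3478 in cKO cords, against 1141, 1155 and 1601 in cHET and 1250, 1387 and 1242 in control cords. The cKO libraries were clear of the others at both ages. The log2 change against cHET was 1.97 ± 0.17 at P21 (limma adjusted p = 8.8e-07) and 1.67 ± 0.13 at P60 (5.3e-06). Patl2, which overlaps B2m on the other strand, averaged 19.5 in P21 cKO, 12.97 in cHET and 13.5 in control cords, a small level beside that of B2m.

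H2-K1, a classical class I heavy chain, had 1589, 2266, 2489 and 2033 in P21 cKO cords, against 534, 531, 862 and 616 in cHET and 518, 504, 663 and 575 in control cords. H2-K1 values at P60 were 637, 670 and 596 in cKO cords, against 234, 245 and 252 in cHET and 246, 275 and 206 in control cords. H2-K1 was thus higher in every cKO cord, by 1.73 ± 0.16 at P21 (limma adjusted p = 1.9e-06) and 1.38 ± 0.10 at P60 (3.2e-06) on the log2 scale against cHET.

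H2-D1, the other classical heavy chain of this strain, had 1408, 2130, 2258 and 1700 in P21 cKO cords, against 617, 672, 814 and 687 in cHET and 679, 606, 691 and 613 in control cords. The P60 cords gave H2-D1 values of 643, 631 and 597 in cKO cords, against 246, 254 and 252 in cHET and 235, 287 and 255 in control cords. The groups did not overlap and H2-D1 was 1.41 ± 0.13 higher at P21 (limma adjusted p = 1.7e-06) and 1.31 ± 0.08 at P60 (1.0e-06) against cHET. H2-K1 was 1.06 to 1.20 times H2-D1 in P21 cKO cords, against 0.790 to 1.06 times in cHET and 0.763 to 0.960 times in control cords. B2m was 5.07 to 6.17 times H2-D1 in P21 cKO cords, against 3.47 to 4.27 times in cHET and 3.40 to 3.91 times in control cords. At P60 both ratios overlapped between cKO and cHET cords. H2-K1 was then 0.991 to 1.06 times H2-D1 in cKO cords, against 0.955 to 1.0 times in cHET and 0.810 to 1.05 times in control cords. B2m was 5.83 to 7.03 times H2-D1 in P60 cKO cords, against 4.54 to 6.35 times in cHET and 4.83 to 5.32 times in control cords. The ratios were not tested.

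Psmb8, the immunoproteasome subunit that replaces Psmb5, had 490, 922, 846 and 525 in P21 cKO cords, against 131, 87.4, 136 and 90.6 in cHET and 92.3, 90.7, 124 and 114 in control cords. For Psmb8 at P60 the values were 261, 261 and 218 in cKO cords, against 74.9, 64.9 and 88.4 in cHET and 61.4, 60.9 and 60.1 in control cords. The cKO cords were several-fold higher, at 2.61 ± 0.22 against cHET at P21 (limma adjusted p = 6.3e-07) and 1.70 ± 0.13 at P60 (4.9e-06).

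Psmb9, the subunit that replaces Psmb6, was the least abundant of the class I genes. It had 63.0, 87.1, 93.2 and 85.4 in P21 cKO cords, against 22.1, 11.7, 23.6 and 23.97 in cHET and 21.3, 9.41, 22.5 and 21.8 in control cords. In P60 cords Psmb9 had 36.01, 31.0 and 29.6 in cKO cords, against 20.7, 10.7 and 12.4 in cHET and 11.99, 19.6 and 6.71 in control cords. The groups were apart at both ages but closer at P60. The log2 change against cHET was 2.02 ± 0.31 at P21 (limma adjusted p = 2.6e-04) and 1.16 ± 0.38 at P60 (0.047). The P60 call was lost when any of cKO 1, 2 or 3, cHET 2 or 3, or control 1 was left out (limma adjusted p up to 0.15), and the P60 call against control (1.42 ± 0.38, adjusted p = 0.019) when cKO 1, cKO 2 or control 3 was (up to 0.065). Against its constitutive counterpart, Psmb9 was 0.0202 to 0.0302 times Psmb6 in P21 cKO cords, against 0.0039 to 0.0086 times in cHET and 0.0035 to 0.0083 times in control cords.

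Tap1, a peptide transporter subunit, had 373, 744, 798 and 487 in P21 cKO cords, against 95.7, 81.6, 146 and 120 in cHET and 115, 149, 157 and 127 in control cords. Tap1 at P60 had 202, 172 and 187 in cKO cords, against 55.8, 71.8 and 99.2 in cHET and 91.2, 95.2 and 82.7 in control cords. Tap1 was 2.40 ± 0.23 higher at P21 (limma adjusted p = 2.8e-06) and 1.34 ± 0.18 at P60 (2.9e-04) against cHET. Against control the P60 change was 1.06 ± 0.18 (1.5e-03), the smallest of the 10 genes in that comparison.

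No member passed the test between cHET and control cords, 0 of 10 at P21 and 0 of 10 at P60 by limma, where 0.0111% and 0.0178% of all genes did. At an unadjusted p under 0.05 the counts were 0 at P21 and 1 at P60, and the authors' deposited table also had 0 at each age. The 1 gene was Psmb8 at P60, at 0.31 ± 0.13, whose 3 cHET values all lay above its 3 control values (limma adjusted p = 0.92); 6.17% of genes were apart in that way. These P60 groups also differ in sex and age, and genotype cannot be told apart from these.

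Averaged over the 4 genes, class II was 1.68 higher in cKO than in cHET cords at P21 and 3.25 at P60 on the log2 scale, and 1.70 and 3.58 higher than in control. B2m, H2-K1 and H2-D1 averaged 1.70 higher at P21 and 1.45 at P60 against cHET. Psmb8, Psmb9 and Tap1 averaged 2.35 and 1.4 higher. For the age difference, which is the P60 effect minus the P21 effect, all 4 class II genes had positive values against cHET, from 1.02 (H2-Ab1) to 2.0 (H2-Aa), and all 6 class I genes had negative ones, from -0.10 to -1.06, though that of H2-D1 turned to 0.0017 without 1 library. The difference between the classes was not tested.

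Only Cd74 passed the test of that age difference, 1 member of 10 against cHET (3.2% of all genes passed) and 1 of 10 against control (4.48%). Its difference was 1.70 ± 0.43 against cHET (limma adjusted p = 0.032) and 2.49 ± 0.43 against control (1.1e-03). The call against control held in all 21 fits that left out 1 library, while the call against cHET held in 11 of 21. It was lost there without P21 cKO 1 or 4, P21 cHET 1, 3 or 4, P60 cKO 1, 2 or 3, or P60 cHET 1 or 3 (limma adjusted p up to 0.087). For H2-Eb1 the difference against cHET was 1.58 ± 0.44 (limma adjusted p = 0.053), for H2-Aa 2.0 ± 0.64 (0.10), for Tap1 -1.06 ± 0.33 (0.096) and for Psmb8 -0.92 ± 0.29 (0.10). Age and library kit changed together and cannot be told apart in these differences. The difference against control also holds the sex and age of the P60 mice, as those controls were female and older than the cKO males. Leaving out a library does not change that.

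**Figure D2:**
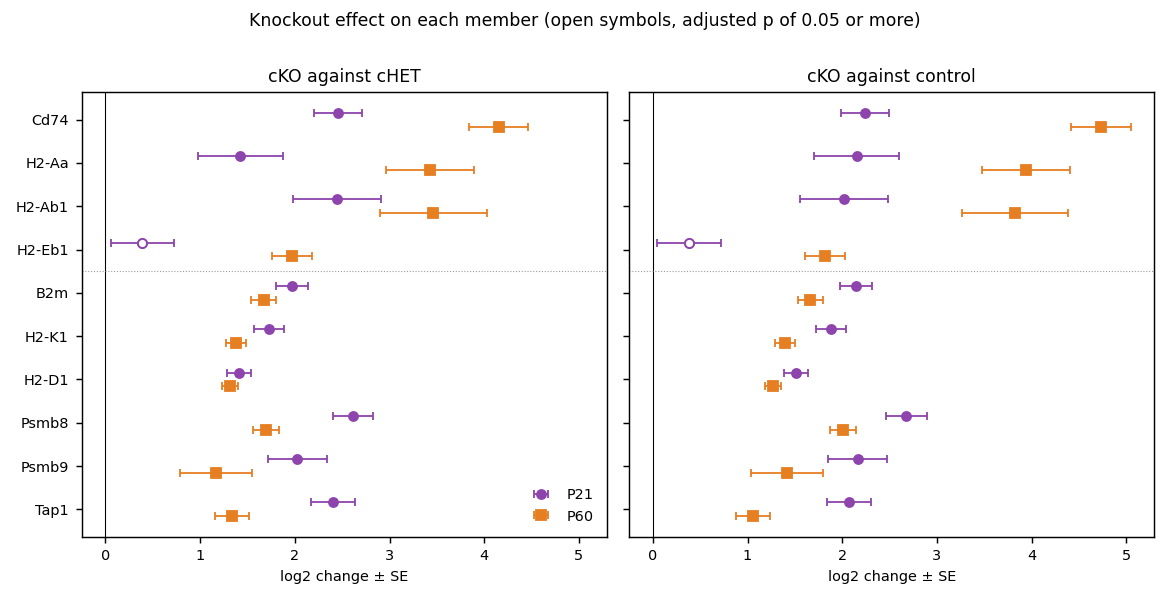
Log2 change with its SE for each gene, cKO against cHET (left) and against control (right), at P21 (circles) and P60 (squares), with class II genes above the dotted line. Class II symbols lie further right at P60 than at P21 and class I symbols further left; open symbols mark H2-Eb1 at P21, which did not pass.

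Within the P21 cKO group the 2 male cords (cKO 2 and 3) had more than the 2 female cords (cKO 1 and 4) for 9 of the 10 genes, all but H2-Eb1, where 23.7% of all genes showed that order. Tap1 had 744 and 798 in males and 373 and 487 in females, and B2m 12182 and 13928 in males and 7876 and 8617 in females. Among cHET cords no gene had both males above both females, and H2-Ab1 and H2-Eb1 had them below. Among controls H2-Ab1 and Tap1 had the males above. The 18 microglia markers followed the same order in cKO cords, averaging 1.93 and 1.91 above the cHET mean in males and 1.47 and 1.54 in females on the log2 scale. No member passed the test that the cKO effect differed between the sexes (0 of 10, with 0.00556% of all genes passing). The lowest limma adjusted p was 0.54, for H2-Ab1, and 3 members had an unadjusted p under 0.05. This order was known from earlier results of these data and rests on 2 mice a sex.

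The rest of the antigen presentation pathway moved unevenly. Among the other class I heavy chains 8 of 15 tested genes were higher in cKO than in cHET cords at P21 and 7 of 14 at P60, where 12.6% and 13.4% of all genes were. Against control 8 of 15 and 4 of 14 were (14.6% and 14.5% of all genes). None was lower, and against cHET the list medians were 0.54 and 0.33 against -0.01 and 0.00 for all genes. H2-Q4 rose by 1.91 ± 0.23 at P21 (limma adjusted p = 3.2e-05) and 0.68 ± 0.12 at P60 (1.4e-03), and its age difference of -1.23 ± 0.31 passed (0.032). H2-T23, the chain known as Qa-1 that natural killer and T cell receptors read, rose by 1.41 ± 0.19 and 0.94 ± 0.15. H2-M3, which presents formylated peptides, rose by 1.39 ± 0.14 and 0.89 ± 0.16, and Mr1, which presents vitamin B metabolites, by 0.86 ± 0.10 and 0.66 ± 0.12.

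Of the genes that supply and load class I peptides 4 of 11 were higher at P21 (12.6% of all genes) and 5 of 11 at P60 (13.4%) against cHET, and 7 of 11 and 5 of 11 against control (14.6% and 14.5%). Nlrc5, the transactivator of class I genes, averaged 160 ± 75.9 in cKO, 28.3 ± 15.3 in cHET and 30.1 ± 15.3 in control cords at P21 (SD, n = 4 each), and rose by 2.47 ± 0.46 against cHET (limma adjusted p = 1.2e-03). At P60 it averaged 69.8 ± 22.3 in cKO, 30.1 ± 11.8 in cHET and 16.02 ± 5.04 in control cords (SD, n = 3 each) and rose by 1.22 ± 0.34 against cHET (0.023). Tapbp, the tapasin that tethers class I to the transporter, rose by 0.78 ± 0.11 and 0.86 ± 0.10, and the proteasome activator Psme1 by 0.63 ± 0.09 and 0.66 ± 0.11. Tap2, the partner of Tap1, rose by 0.91 ± 0.20 at P21 (limma adjusted p = 4.0e-03), and at P60 its change was 0.25 ± 0.26 (0.54). Psmb10, the remaining catalytic subunit of the immunoproteasome, is named after its values were seen. It averaged 1077 ± 124 in cKO, 995 ± 53.5 in cHET and 886 ± 66.7 in control cords at P21 (SD, n = 4 each). Its log2 change against cHET was 0.11 ± 0.09 at P21 (limma adjusted p = 0.42) and 0.08 ± 0.12 at P60 (0.71). Against control it rose at P21 by 0.28 ± 0.09 (limma adjusted p = 0.027) and changed by 0.25 ± 0.12 at P60 (0.17). Of the constitutive 20S proteasome genes 1 of 11 was higher at P21 (12.6% of all genes) and 2 of 11 at P60 (13.4%) against cHET. Against control the counts were 3 of 11 and 2 of 11 (14.6% and 14.5%). At P21 Psmb6 rose by 0.18 ± 0.06 against cHET, and Psma6, Psmb3 and Psmb2 changed by 0.15 ± 0.06, 0.16 ± 0.07 and 0.13 ± 0.08 (limma adjusted p of 0.085, 0.11 and 0.29).

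The list of class II loading genes and endosomal proteases also holds regulators of class II transcription. Of this list 7 of 12 tested genes were higher at P21 (12.6% of all genes) and 7 of 11 at P60 (13.4%) against cHET. Against control the counts were 7 of 12 and 7 of 11 (14.6% and 14.5%). No regulator was among the 7. Ctss, the cathepsin S that trims the invariant chain, averaged 12721 ± 2927 in cKO, 1745 ± 273 in cHET and 1645 ± 112 in control cords at P21 (SD, n = 4 each), and rose by 2.85 ± 0.14 at P21 and 2.56 ± 0.16 at P60 (limma adjusted p = 4.4e-09 and 7.7e-07). Ifi30, a thiol reductase that opens antigens, rose by 2.56 ± 0.16 and 2.02 ± 0.18, and H2-DMa, a peptide editor, by 1.17 ± 0.13 and 0.99 ± 0.18. Lgmn, an asparaginyl endopeptidase, rose by 0.44 ± 0.04 and 0.37 ± 0.06. The age differences of Ctss, Ifi30, Lgmn and H2-DMa against cHET were -0.54 to -0.07, and none passed (lowest limma adjusted p = 0.30). Ciita, the master regulator of class II transcription, is given from the authors' test. It is not among the 25127 genes with values in each library. In the authors' deposited table its log2 change against cHET was -0.52 at P21 (q = 0.17) and -0.02 at P60 (q = 0.98), and neither passed. Rfxank and Rfxap, which bind the class II promoter box, changed by 0.03 ± 0.07 and -0.08 ± 0.11 at P21 against cHET, without passing. At P60 against control Rfxap fell by 0.34 (limma adjusted p = 0.0496) and Rfxank changed by -0.10 ± 0.13 (0.63).

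Among costimulatory and checkpoint ligands 4 of 8 were higher at P21 and 5 of 7 at P60 against cHET and against control alike. Of all genes 12.6% and 13.4% were higher against cHET, and 14.6% and 14.5% against control. Cd86, which costimulates T cells, rose by 2.07 ± 0.22 and 1.93 ± 0.23 against cHET, the adhesion ligand Icam1 by 1.51 ± 0.12 and 1.88 ± 0.14, Icosl by 0.89 ± 0.10 and 0.85 ± 0.10, and Cd274, the PD-L1 ligand, by 1.01 ± 0.16 and 0.58 ± 0.15. Among interferon and NF-kB genes 7 of 12 were higher (12.6% of all genes) and 1 lower at P21 against cHET, and 4 of 12 were higher at P60 (13.4%). Against control 8 of 12 were higher at P21 (14.6% of all genes), and 4 higher (14.5%) and 1 lower at P60. Irf9 rose by 0.74 ± 0.12 at P21 (limma adjusted p = 5.0e-04) and changed by 0.31 ± 0.14 at P60 (0.14). Irf1 rose by 0.85 ± 0.18 at P21 and changed by 0.43 ± 0.20 at P60 (limma adjusted p = 0.15), while Rela rose by 0.29 ± 0.06 and 0.36 ± 0.07, and Ifnar2, an interferon receptor subunit, by 0.41 ± 0.09 and 0.85 ± 0.10. Ifng was listed at 0 in all cKO and all control libraries and at 1.25 or less in cHET libraries.

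**Figure D3:**
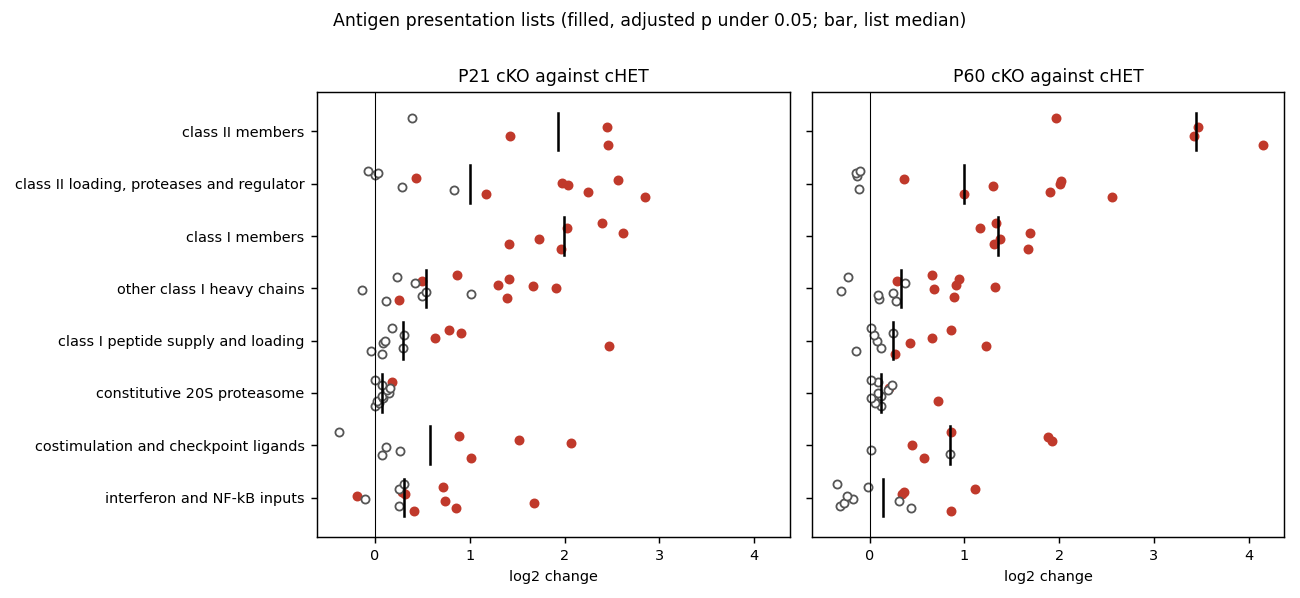
Log2 change of each tested gene, cKO against cHET, at P21 (left) and P60 (right), grouped by list, with filled points for an adjusted p under 0.05 and a bar at the list median. The bar of the 4 class II genes lies at 1.93 at P21 and 3.44 at P60, that of the 6 class I genes at 1.996 and 1.36, and that of the constitutive 20S proteasome near 0 at both ages.

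Markers of microglia, the resident cells that can present antigen in the cord, moved with the members. Their 18 genes summed to 64085 to 86444 in P21 cKO cords, against 19019 to 21354 in cHET and 18413 to 20598 in control cords. At P60 the sum was 28518 to 38279 in cKO, against 9310 to 9859 in cHET and 8314 to 9624 in control cords. Against cHET 15 of 18 markers were higher and 1 lower at P21, where 12.6% of all genes were higher and 9.97% lower. At P60 14 were higher and 4 lower, where 13.4% and 11.5% of all genes were. The mean of the 18 rose by 1.71 at P21 and 1.48 at P60 on the log2 scale, beside 1.70 and 1.45 for B2m, H2-K1 and H2-D1, and 1.68 and 3.25 for class II. At P60 Trem2 rose by 3.52 ± 0.13 against cHET (limma adjusted p = 3.0e-08), and P2ry12 and Tmem119 fell by 1.15 and 1.76 (3.8e-04 and 2.2e-05). In whole cord more cells of a type and more RNA per cell cannot be told apart, and the part of either in the rise of these genes was not tested.

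**Figure D4:**
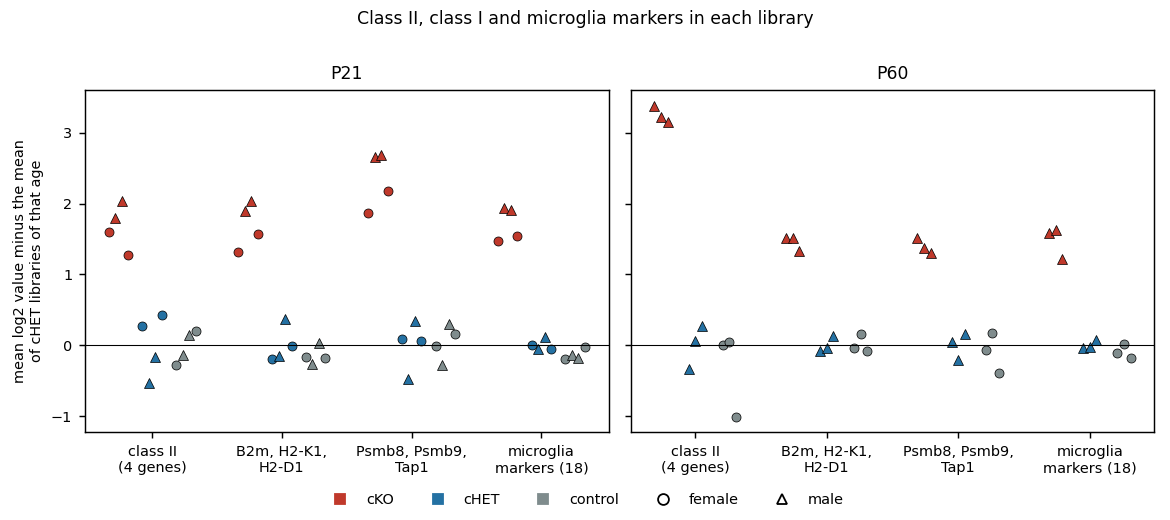
Mean log2 value of class II (4 genes), of B2m, H2-K1 and H2-D1, of Psmb8, Psmb9 and Tap1, and of 18 microglia markers in each library, minus the mean of cHET libraries of the same age, with cKO, cHET and control from left to right. At P60 the class II points of the cKO cords lie at 3.16 to 3.38, above the other measures at 1.22 to 1.63, and at P21 the class II points at 1.28 to 2.03 lie among those of the other measures.

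Markers of other cells that can carry class II gave a mixed picture. Itgax, which is shared by dendritic cells and activated microglia, rose by 4.88 ± 0.42 at P21 and 5.84 ± 0.83 at P60 against cHET. Of the 8 dendritic cell markers tested at P21 Batf3 also rose, Flt3 fell and the other 5 did not pass; Cd209a was at most 0.412 and Ccr7 at most 1.003 in any cKO library. The dendritic cell markers, 10 in all, summed to 1842 to 2008 in P21 cKO cords, against 1519 to 1685 in cHET and 1634 to 1792 in control cords. Their P60 sums ran from 991 to 1088 in cKO cords, against 800 to 867 in cHET and 862 to 998.8 in control cords. These sums include Itgax, which averaged 441 in P21 cKO, 13.8 in cHET and 6.81 in control cords, and 315, 5.10 and 5.46 at P60. Flt3, also in the sums, averaged 1033 in P21 cKO, 1229 in cHET and 1298 in control cords, and 575, 687 and 750 at P60. Among B cell markers Cd79b rose at P21 by 1.92 ± 0.28 (limma adjusted p = 1.6e-04) and Ighm fell at P60 by 1.27 (9.6e-04), while the sum of the 6 was 898 to 2060 in P21 cKO cords, against 2151 to 2341 in cHET and 1824 to 2593 in control cords. The B cell sum at P60 was 379 to 811 in cKO cords, against 1296 to 1320 in cHET and 977 to 1019 in control cords. The 10 T cell markers, whose CD4+ and CD8+ cells read class II and class I, summed to 99.9 to 136 in P21 cKO cords, against 63.7 to 112 in cHET and 98.2 to 123 in control cords, and 0 of 5 tested passed. At P60 the T cell sum was 38.6 to 54.5 in cKO cords, against 32.1 to 51.3 in cHET and 42.8 to 50.8 in control cords, and again 0 of 5 passed. Of these markers Cd5 had no row in the authors' comparisons and was not tested. It was 12.9 to 24.9 in P21 cKO cords, against 0 to 1.11 in cHET and 0 to 4.04 in control cords. At P60 Cd5 was 2.15 to 9.03 in cKO cords, against 0.808 to 1.11 in cHET and 0 to 0.996 in control cords. The ranges of Cd3e, Cd4 and Cd8a in cKO cords overlapped those in cHET and in control cords at each age. Of the 8 border macrophage markers Ms4a7 rose by 2.92 ± 0.41 at P21 and 4.05 ± 0.28 at P60 and Folr2 by 0.87 ± 0.28 at P21. Their sum was 282 to 357 in P21 cKO cords, against 151 to 252 in cHET and 171 to 267 in control cords. By P60 the sum was 208 to 259 in cKO cords, against 69.4 to 94.5 in cHET and 58.2 to 88.8 in control cords. These sums include Ms4a7, which averaged 48.2 in P21 cKO, 6.37 in cHET and 14.8 in control cords, and 126, 7.22 and 4.91 at P60. Against cHET 2 of 6 tested border macrophage markers were higher at P21 (12.6% of all genes) and 1 of 4 at P60 (13.4%). None of the monocyte and neutrophil markers tested passed, 4 at P21 and 2 at P60, and no natural killer marker reached the level for testing. The natural killer sum was 4.85 to 27.3 in P21 cKO cords, against 5.44 to 8.62 in cHET and 2.31 to 6.06 in control cords. For P60 it was 5.19 to 11.6 in cKO cords, against 0.808 to 6.55 in cHET and 0.973 to 3.26 in control cords.

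Markers of astrocytes, oligodendrocytes and neurons in the cord also moved. Astrocyte markers were higher for 6 of 8 genes at P21, Gfap among them, and 4 of 8 at P60 against cHET, with none lower. Of all genes 12.6% were higher at P21 and 13.4% at P60. None of these astrocyte genes was lower. The astrocyte sum was 316104 to 362931 in P21 cKO cords, against 159259 to 166795 in cHET and 151836 to 161558 in control cords. At P60 it was 132201 to 159381 in cKO cords, against 66708 to 73044 in cHET and 64275 to 67524 in control cords. These astrocyte groups did not overlap at either age. Against cHET oligodendrocyte markers were lower for 6 of 10 genes and higher for 2 at P21, and 8 lower and 2 higher at P60. Neuron markers were lower for 7 of 10 at P21 and 5 of 10 at P60, with none higher. Endothelial markers were lower for 1 of 8 at each age, near the share of all genes. Of all genes 9.97% were lower at P21 and 11.5% at P60. Against control at P21 neuron markers were lower for 10 of 10 and endothelial markers for 4 of 8. Oligodendrocyte markers were then 3 lower and 3 higher of 10. At P60 the lower counts against control were 5, 2 and 8, with 2 oligodendrocyte markers higher. In either direction 4834 of 17989 genes passed against control at P21 and 4360 of 16833 at P60. Of these, 2620 at P21 and 2435 at P60 were higher, and the rest were lower. The part of these cells in the change of the MHC genes was not tested.

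Variation inside the groups was shared more within class I than within class II. Over the 21 libraries, after each group's mean was taken away, the 15 pairs of class I genes had a median Pearson correlation of 0.70 (0.21 to 0.87), the 6 pairs of class II genes 0.19 (-0.09 to 0.54) and the 24 pairs across classes 0.33. Outside the members, and among 13899 genes, the genes most like the mean of B2m, H2-K1 and H2-D1 in that sense were Ifi27 at 0.93, Ifitm3 and Lgals3bp at 0.91, and H2-T23 and H2-Q4 at 0.89. Those most like the class II mean were Foxs1 at 0.81, Fam46c and Orc1 at 0.78, 4921536K21Rik at 0.77 and Agpat2 at 0.75. These are descriptions over libraries that share their scaling, and low class II values in cHET and control cords are noisy.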

How the data were processed

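Each library's signal was deposited by the authors as reads per base of gene length, normalized and scaled. Kallisto 0.43.0, sleuth 0.28.1 and GRCm38 are named in the submitters' processing notes, with no roles. The labels give the Illumina TruSeq RNA Sample Prep Kit for P21 and the NEXTflex Rapid Directional RNA-Seq Kit for P60, on Trizol RNA. The authors' tables of comparisons hold, per the file headers, natural log effects with p-values and q-values, and the effects were divided by the natural log of 2. These values do not give read depth, so no counting intervals are printed.

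All 10 members were found by Ensembl identifier, and the mean natural log of (value + 0.5) over an age's libraries equalled that in the authors' tables at both ages (tolerance 1e-06). Among all genes listed there, 16483 of 18101 means were equal at P21 and 15368 of 16928 at P60. Tests used log2(value + 0.5), which understates the change of low genes. Testing needed a value of 5 in 4 libraries (P21) or 3 libraries (P60), which all 10 members reached. Limma 3.58.1 in R 4.3.3 (limma-trend, 2-sided) took the 3 genotypes of 1 age in 1 fit. Adjusted p-values are Benjamini-Hochberg over every gene tested, with a threshold of 0.05, and age and sex differences are interaction terms. The scripts were tested on simulated data. Replicates are separate mice numbered in accession order. Positions are from GENCODE M21.

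Members, lists, tests and alternatives were chosen with earlier results of these data known. All 10 members are named, with the 4 genes of each pathway list that had the smallest limma p for cKO against cHET at P21. Genes like the members were the 5 with the highest correlation among those tested at both ages, with means equal to the authors', and with a mean of at least 20. Psmb10, Rfxank, Rfxap, Ciita, Ifng and the single marker genes were chosen after their values were seen. Alternatives were pseudocounts of 0.05 and 5, no minimum or a mean of 50, median-of-ratios or quantile scaling, array weights, fits of 2 groups, sex as a covariate, the authors' tests, and each library left out.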

Additional observations from a re-analysis of the deposited data

Results flagged for a closer look

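Psmb9 in P21 cHET 2 was 11.7, far below the other 3 cHET cords of that age, and Psmb9 in P21 control 2 was 9.41, far below the other 3 controls. They were picked out because the gap to the nearest library was a large share of the group's range. Of 30 groups of 4 libraries examined, 2 were picked out this way, and chance picks about 1 in 20. The age difference of Cd74 was 1.70 against cHET and 2.49 against control on the log2 scale. It was picked out because the interaction of genotype and age passed the limma test.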

How the results depend on the processing

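Counts of members passing the test kept within 1.5 times their main value under most alternatives. With a mean of at least 50 the counts at P60 were 6 against cHET and 6 against control, because H2-Aa, H2-Ab1, H2-Eb1 and Psmb9 were then not tested. For the age difference against cHET the count was 2 with a pseudocount of 5, with quantile normalization, or with the genes whose per-library and table means agree alone (chosen after seeing the data), against 1; against control it was 2 with a pseudocount of 5 or with array weights, against 1. The added gene was H2-Aa with a pseudocount of 5, H2-Eb1 with quantile normalization or that gene subset, and Tap1 with array weights against control. The call of Cd74 against cHET was lost with array weights (1.47, limma adjusted p = 0.066), where Tap1 passed instead. The P21 call of H2-Aa against cHET was lost with quantile normalization (limma adjusted p = 0.054). The P60 call of Psmb9 against cHET was lost with a pseudocount of 0.05 (limma adjusted p = 0.0505), no filter (0.081) and quantile normalization (0.084).

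Leaving out 1 library at a time gave counts of 8 to 9 (cKO against cHET) and 9 to 9 (cKO against control) at P21, 9 to 10 for both at P60, 0 to 2 and 1 to 2 for the age difference against cHET and control, and 0 to 0 for the sex difference and for cHET against control. Signs turned round only among effects that had not passed. For cHET against control at P21 the ranges without 1 library were -0.34 to 0.034 for Cd74, -0.77 to 0.075 for H2-Ab1, -0.26 to 0.29 for H2-Eb1, -0.0073 to 0.23 for H2-K1, -0.044 to 0.17 for Psmb8 and -0.15 to 0.38 for Psmb9. At P60 they were -0.17 to 0.075 for B2m, -0.12 to 0.62 for Psmb9, -0.23 to 0.88 for H2-Ab1, -0.093 to 0.11 for H2-K1, -0.11 to 0.035 for H2-D1 and -0.082 to 0.98 for H2-Aa. The age difference of H2-D1 against cHET ranged from -0.23 to 0.0017, and the sex difference from -0.19 to 0.51 for H2-K1 and -0.09 to 1.02 for H2-Aa. H2-Eb1 in P21 cHET against control, at -0.01, was 4e-04 with a pseudocount of 5 and 0.0152 with quantile normalization. The causes were not tested.

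No paired analysis was possible because the labels give mouse identifiers and no replicate numbers shared between groups. Read depth is not known, and at P60 the controls differ in sex and age from the other mice.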
